A study of Homo sapiens with 2 samples.

Results

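The members described here are 6 genes of the MHC class I molecule, 5 heavy chain genes (HLA-B, HLA-C, HLA-E, HLA-F and HLA-G) and B2M, the gene of the shared light chain β2-microglobulin. They were chosen by symbol from the 36601 genes counted in the single-cell data, 6 of them. The rule itself uses no measured value, but the choice was made with earlier results of these data known. They were followed in human OVCAR5 cells, an established ovarian carcinoma line, that had grown as tumours in NSG-B2m-/- mice. These immunodeficient hosts lack mouse β2-microglobulin, so the light chain counted here came from a human gene. The tumour cells carried the genotype given as an IFNy-sensing reporter with CFP, and the sorted CFP+ cells are called bystander cells in the protocol. Cytokines had been injected into the tumours.

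One droplet library pooled 13 tumours, per its description. Of these, 3 received TNFa at 10 ng/ml and were taken at 6 h. Another 2, also taken at 6 h, received 10 ng/ml of TNFa together with IFNy at 100 ng/ml. IFNy at 100 ng/ml alone was given to 2 tumours taken at 24 h and to 1 tumour taken at 48 h. The unexposed tumours numbered 2 at 6 h, 2 at 24 h and 1 at 48 h. The treatment fields of the 2 library records name single conditions that differ from this pool description. Cells were told apart by hashtag antibodies, whose oligonucleotide counts were deposited beside the gene counts.

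A cell was placed by the 2 highest of the hashtags HTO2 to HTO9, where the second had 20 counts or more and at least 4 times the third. This gave 13 hashtag pairs of the 28 possible, each with 50 cells or more. The labels used here do not say which pair marks which tumour. Every pair is therefore described singly, exposed and unexposed tumours are not compared, and no test between pairs was run, since cells of 1 pair are not replicates. Of 9083 barcodes, 3611 (39.8%) had 500 genes or more and at most 20% of UMIs (unique molecular identifiers, each standing for 1 captured RNA molecule) from mitochondrial genes. Of those, 2994 carried a pair, between 110 cells in HTO4+HTO9 and 507 cells in HTO2+HTO5. Summed gene UMIs per pair ranged from 765923 to 5058403, and the median cell had 8646 UMIs and 2842 genes.

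Most cells carried epithelial markers, which fit a carcinoma but do not identify the line. Epithelial markers (EPCAM, keratins, claudins and others) were all measured, 10 of 10, with a summed level between 7613 CPM (UMIs of a gene per 1000000 UMIs of the pair) in HTO4+HTO6 and 3757 in HTO2+HTO8, and 2867 cells (95.8%) had UMIs of 3 or more of them. Leukocyte markers were found as 3 or more per cell in 8 cells (0.267%), with CD3E, MS4A1 and FCGR3A at 0 in every pair. Of the 10 leukocyte markers, 3 had 30 UMIs or more: CD68 (1072), LYZ (295) and CD14 (215). The summed level of the 10 lay between 71.6 CPM in HTO2+HTO7 and 39.2 in HTO4+HTO9. Fibroblast and endothelial markers reached at most 39.0 and 16.1 CPM. The genes counted are human, while cells of the host would be mouse cells. Low values of these markers therefore cannot show that host cells were absent.

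MHC class I molecules carry peptides from the cell's own proteins to the surface, where CD8 T cells read them. Peptides are cut by the proteasome, whose immunoproteasome subunits are made under interferon, and are carried into the endoplasmic reticulum by the TAP transporter. A heavy chain folds there around a peptide together with β2-microglobulin. HLA-B and HLA-C are classical heavy chains, HLA-E shows leader peptides of other class I chains to the NKG2A receptor of natural killer cells, HLA-F is a less well understood non-classical chain, and HLA-G is best known from the placenta. Interferon-γ acts on these genes through IRF1 and the transactivator NLRC5, among others, and NF-κB, which TNF activates, can act on class I promoters too.

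The upstream sequences are shown because the elements through which these factors act lie close to the start of the gene. Of the 6 members, 5 were matched in the RefSeq promoter table of build GRCh38.p14. For each the 160 bases from 190 to 31 bases before the start are given, 5′ to 3′ on the gene's own strand. Capitals mark matches on either strand to AANNGAAA (a spaced pair of GAAA-type half-sites bound by interferon regulatory factors), GGGATTCCC (an NF-κB site), TGACG (the core of the X2 box) and CCAATCAG (the Y box). In B2M the interferon regulatory matches overlap each other. The windows lie at chr6:31357210-31357369 on the minus strand for HLA-B, chr6:31272123-31272282 on the minus strand for HLA-C, chr6:29723244-29723403 on the plus strand for HLA-F, chr6:29827635-29827794 on the plus strand for HLA-G and chr15:44711327-44711486 on the plus strand for B2M. HLA-G had 3 listed windows, and the one that holds its start codon is shown.
HLA-B: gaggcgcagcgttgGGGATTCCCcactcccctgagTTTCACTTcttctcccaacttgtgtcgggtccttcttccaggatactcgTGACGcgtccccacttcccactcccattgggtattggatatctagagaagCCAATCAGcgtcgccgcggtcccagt
HLA-C: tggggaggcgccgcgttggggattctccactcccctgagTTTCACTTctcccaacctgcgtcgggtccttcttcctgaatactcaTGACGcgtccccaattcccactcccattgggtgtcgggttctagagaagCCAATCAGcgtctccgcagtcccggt
HLA-F: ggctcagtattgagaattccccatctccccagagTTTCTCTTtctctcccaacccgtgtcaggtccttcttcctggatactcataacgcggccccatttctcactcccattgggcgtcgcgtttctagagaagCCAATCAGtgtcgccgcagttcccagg
HLA-G: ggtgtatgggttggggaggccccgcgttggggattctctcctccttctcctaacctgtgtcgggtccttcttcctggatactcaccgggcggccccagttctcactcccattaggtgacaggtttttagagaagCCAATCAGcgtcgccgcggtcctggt
B2M: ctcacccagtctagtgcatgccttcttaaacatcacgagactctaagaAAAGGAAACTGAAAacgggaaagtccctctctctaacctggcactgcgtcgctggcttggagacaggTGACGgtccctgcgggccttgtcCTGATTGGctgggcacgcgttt

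The Y box was matched in 5 of 5 windows, against 3.15% of 35116 promoter windows of the same length. AANNGAAA was matched in 4 of 5, all but HLA-G, against 13.01% of all windows, and TGACG in 3 of 5 (HLA-B, HLA-C and B2M), against 14.9%. The NF-κB letters were matched in HLA-B, 176 bases before its start, and in 73 windows (0.208%) of the whole table. These are matches of letters, not measured sites, and the motifs were picked with the sequences in view.

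The genes themselves lie, in build GRCh38 with GENCODE 29, at chr6:31269491-31357188 (minus strand) for HLA-B, chr6:31268749-31272130 (minus) for HLA-C, chr6:30489467-30494205 (plus) for HLA-E, chr6:29722775-29738528 (plus) for HLA-F, chr6:29826967-29831125 (plus) for HLA-G and chr15:44711487-44718877 (plus) for B2M. The HLA-B span is widened by a listed transcript that runs into HLA-C. Class I genes resemble each other, so a read can be split or lost between them. Of the 411 stretches of 90 bases in the last 500 bases of each member's longest coding transcript, the end that a 3′ library reads, 0 matched a transcript of another gene exactly. OVCAR5's own alleles, which can differ from the reference, were not analysed here, and single HLA values carry that uncertainty.

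Each of the 6 members was highest in HTO4+HTO8 or HTO4+HTO9, with the other of these next to it, and the order below them differed between genes. Together they made up 221502 UMIs, 0.763% of the UMIs in the pairs. Their sum was 16041 CPM in HTO4+HTO9 and 15883 in HTO4+HTO8, then 11314 in HTO3+HTO6, 10782 in HTO2+HTO8 and 9144 in HTO2+HTO9. The lowest pair was HTO3+HTO5, at 4657. The highest was 3.44 times the lowest (exact conditional 95% interval 3.34 to 3.55). Here and below intervals cover counting error only, not the spread between cells, between tumours or between injections. Which pairs were highest, lowest or neighbours was read from the same counts.

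HLA-B, a classical heavy chain with 44634 UMIs in all, reached 3876 CPM (exact Poisson 95% interval 3777 to 3978) in HTO4+HTO8 and 3828 (3691 to 3969) in HTO4+HTO9. HTO3+HTO6 followed at 3047.5, HTO2+HTO8 at 1953 and HTO2+HTO9 at 1716. These 5 pairs stood above the other 8, with a gap between HTO2+HTO9 and the next pair, HTO2+HTO7 at 1282. HTO2+HTO6 had 1276, HTO4+HTO6 1219, HTO2+HTO5 1183 and HTO4+HTO7 1129. The 3 lowest pairs all carried HTO3, with 989.9 in HTO3+HTO9, 945.6 in HTO3+HTO7 and 864.4 (814.7 to 916.4) in HTO3+HTO5. The highest pair was 4.48 times the lowest (4.21 to 4.78). Of the 12 neighbours in this order, 7 differed beyond counting error, and the highest and the next did not (HTO4+HTO8 over HTO4+HTO9 1.01, 0.968 to 1.06).

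HLA-C, the other classical chain, kept the same 5 pairs on top over a narrower range. It had 2361 CPM (2283 to 2440) in HTO4+HTO8, 2281 in HTO4+HTO9 and 1910 in HTO3+HTO6, then 1304 in HTO2+HTO8 and 1186 in HTO2+HTO9. The median pair, HTO2+HTO6, had 969.3, and the lowest, HTO3+HTO5, had 739.6. The highest was 3.19 times the lowest (2.97 to 3.43), and 5 of 12 neighbours differed beyond counting error.

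HLA-E, the ligand of NKG2A, moved further and in a different order. It was highest in HTO4+HTO9, at 1186 CPM (1110 to 1265), followed by HTO4+HTO8 at 1033, HTO2+HTO8 at 781.0 and HTO2+HTO9 at 628.9. HTO3+HTO6, which held the third place for HLA-B and HLA-C, held the fifth here at 437.1 (396.9 to 480.2). The median pair was HTO2+HTO7 at 262.0 and the lowest HTO3+HTO5 at 153.1. The highest was 7.74 times the lowest (6.64 to 9.07). Of the 12 neighbours, 7 differed beyond counting error, HTO4+HTO9 and HTO4+HTO8 among them.

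HLA-F, a non-classical chain counted at a much lower depth (1609 UMIs), had 179.2 CPM (158.3 to 202) in HTO4+HTO8 and 165.8 in HTO4+HTO9. HTO2+HTO8 had 93.5, HTO3+HTO6 84.6 and HTO2+HTO9 74.1. The median was 44.2, and the lowest pair, HTO3+HTO7, had 14.7 from 20 UMIs. The ratio of highest to lowest was 12.2 (7.72 to 20.2). With the stricter cell filter described under the processing it came to 28.5, with a far wider interval of 4.74 to 1162. That filter left 400 cells, with 12 in the smallest pair.

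HLA-G was counted rarely, with 177 UMIs over all pairs. Its level was 18.3 CPM (9.99 to 30.7) in HTO4+HTO9 and 16.8 in HTO4+HTO8. The median pair had 5.15, and the lowest, HTO3+HTO5, had 2.30 from 3 UMIs. Of 12 neighbours 0 differed beyond counting error, and the ratio of highest to lowest, 7.96, had an interval of 2.22 to 43.2.

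B2M, the light chain shared by all of them, had 132001 UMIs and the most precise values. It reached 8562 CPM (8356 to 8772) in HTO4+HTO9 and 8418 in HTO4+HTO8, then 6643 in HTO2+HTO8, 5828 in HTO3+HTO6 and 5530 in HTO2+HTO9. HTO2+HTO7 followed at 4128, HTO2+HTO6 at 4039, HTO4+HTO7 at 3934, HTO2+HTO5 at 3875 and HTO4+HTO6 at 3782. The 3 lowest pairs were again HTO3 pairs, with 3202 in HTO3+HTO7, 2871 in HTO3+HTO5 and 2823 (2734 to 2914) in HTO3+HTO9. The highest was 3.03 times the lowest (2.91 to 3.16), and 7 of 12 neighbours differed beyond counting error. In B2M HTO2+HTO8 stood above HTO3+HTO6, while in HLA-B and HLA-C it stood below.

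**Figure D1:**
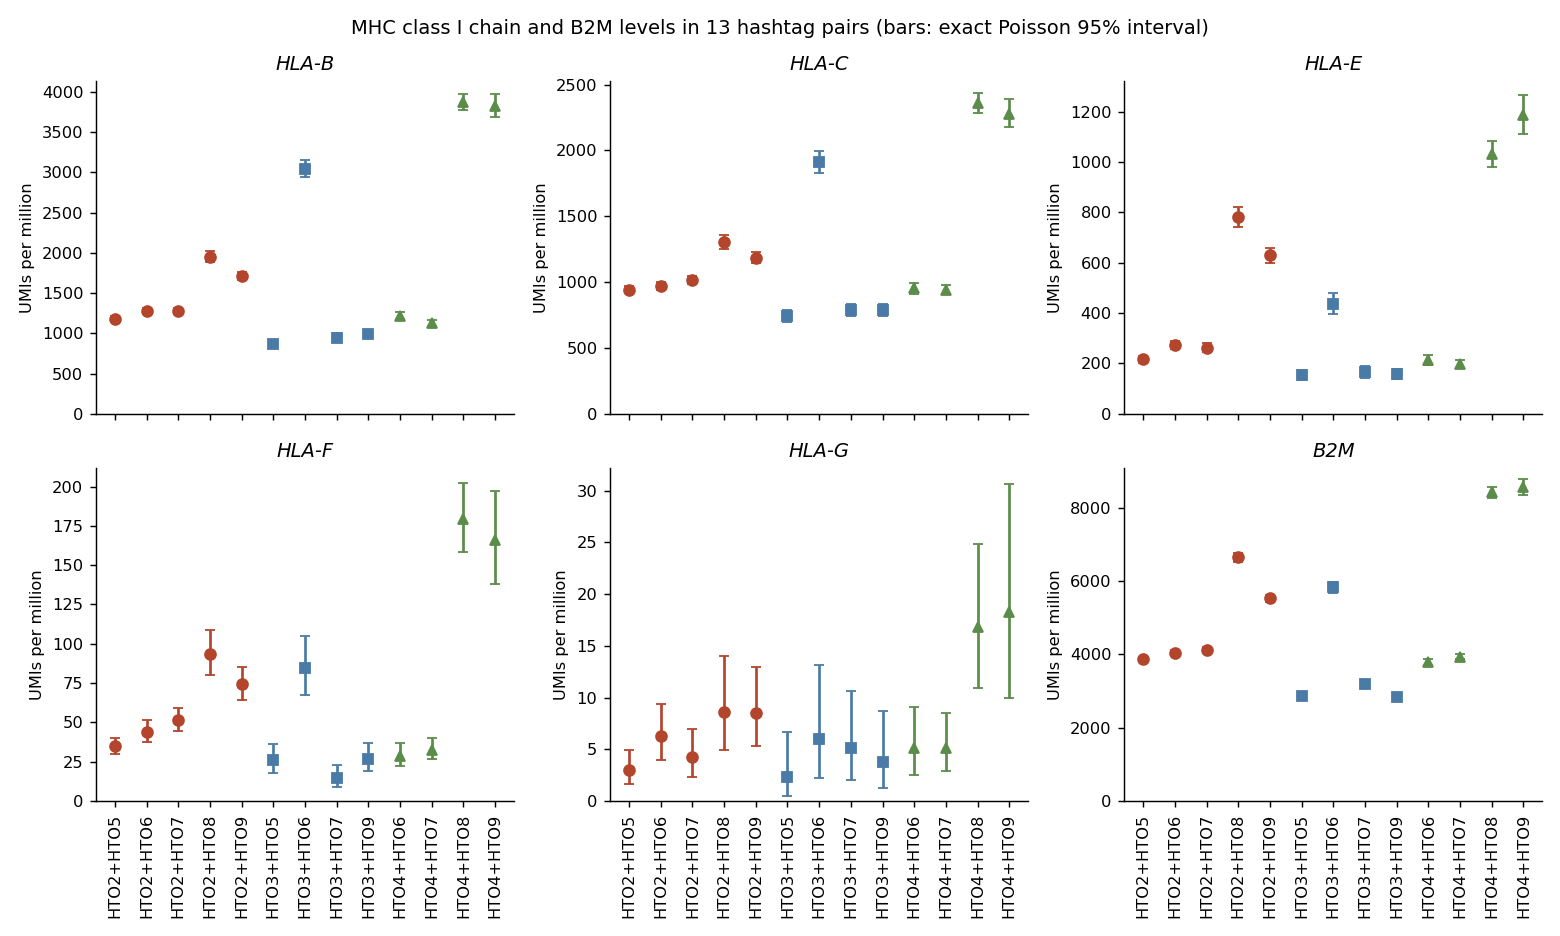
Level of each member in each of the 13 hashtag pairs, in CPM (vertical axis, from 0, 1 scale per gene); bars are exact Poisson 95% intervals, and red circles, blue squares and green triangles mark pairs with HTO2, HTO3 and HTO4. HTO4+HTO8 and HTO4+HTO9 are the 2 highest pairs for every member, and HTO3+HTO6 has the third place for HLA-B and HLA-C and the fifth for HLA-E.

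Many genes varied between these pairs, and low counts widen the ratio of highest to lowest by themselves. Among the 13596 genes with 30 UMIs or more, the highest pair exceeded the lowest by 2-fold or more in 61.8% and by 4-fold or more in 21.7%. Of the members, 6 of 6 passed 2-fold and 4 of 6 passed 4-fold. Among the 3999 genes with 1000 UMIs or more these shares were 28.8% and 5.65%. Of the 5 members in that class, 5 passed 2-fold and 3 passed 4-fold (HLA-B, HLA-E and HLA-F). Their median ratio was 4.48, against 1.69 over all genes of the class. The 8 reference genes gave a further scale: their summed level ranged from 9651 CPM in HTO3+HTO9 to 7757 in HTO2+HTO8, a ratio of 1.24. Taken singly, 2 of the 8 differed by 2-fold or more, TBP by 3.83-fold on 175 UMIs and TFRC by 2.53-fold on 1193. Counted per UMI of ACTB, the β-actin gene, HLA-B kept its spread, with 2.00 in HTO4+HTO8 and 0.449 in HTO3+HTO5.

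**Figure D2:**
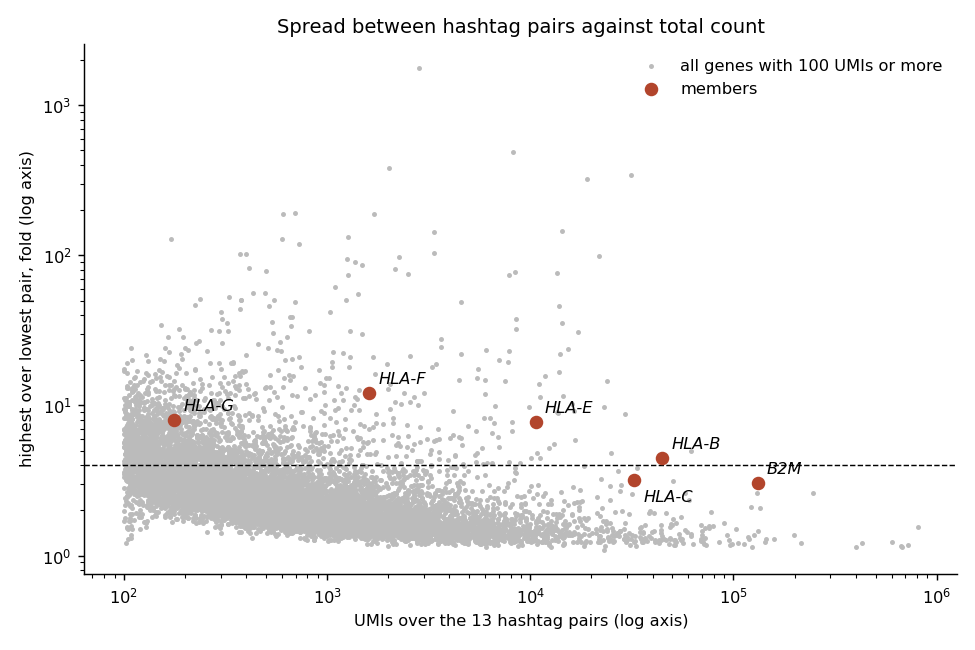
Ratio of the highest to the lowest pair (vertical log axis) against the UMIs of the gene over the 13 pairs (horizontal log axis), for every gene with 100 UMIs or more (grey) and the 6 members (red); the dashed line is 4-fold. The ratio of grey points falls with depth, HLA-G lies within the broad band of poorly counted genes, and HLA-B, HLA-E and HLA-F lie above the line among better counted genes.

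The members did not move in one fixed proportion. In most pairs about the same number of B2M UMIs stood beside each UMI of the 5 heavy chain genes, with a median over the pairs of 1.57. HTO3+HTO6 (1.06, 1.02 to 1.10), HTO4+HTO8 (1.13, 1.10 to 1.16) and HTO4+HTO9 (1.14, 1.10 to 1.19) lay apart. The next pair upwards was HTO3+HTO9 at 1.44 (1.37 to 1.51), and the highest was HTO4+HTO7 at 1.70 (1.65 to 1.76). HTO2+HTO8 at 1.60 and HTO2+HTO9 at 1.53 lay with the pairs of low class I, although their members were counted above the median. So heavy chain UMIs were high relative to B2M in 3 of the 5 pairs with the most class I, and not in the other 2.

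HLA-E relative to HLA-B sorted the pairs in another way. HLA-E UMIs per HLA-B UMI were highest in HTO2+HTO8 (0.400, 0.376 to 0.425) and HTO2+HTO9 (0.366, 0.346 to 0.388), then in HTO4+HTO9 (0.310) and HTO4+HTO8 (0.266). The median pair had 0.183. HTO3+HTO6 was the lowest of all 13, at 0.143 (0.129 to 0.159), so the pair with the third highest HLA-B level had the smallest HLA-E per HLA-B. Set against the lowest pair of each gene, HTO3+HTO6 had 3.53 times the HLA-B, 2.58 times the HLA-C and 2.85 times the HLA-E. HTO2+HTO8 had 2.26 times the HLA-B, 1.76 times the HLA-C and 5.10 times the HLA-E. HLA-C UMIs per HLA-B UMI ran the other way from HLA-B itself, with 0.856 in HTO3+HTO5, where HLA-B was lowest, and 0.596 in HTO4+HTO9.

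**Figure D3:**
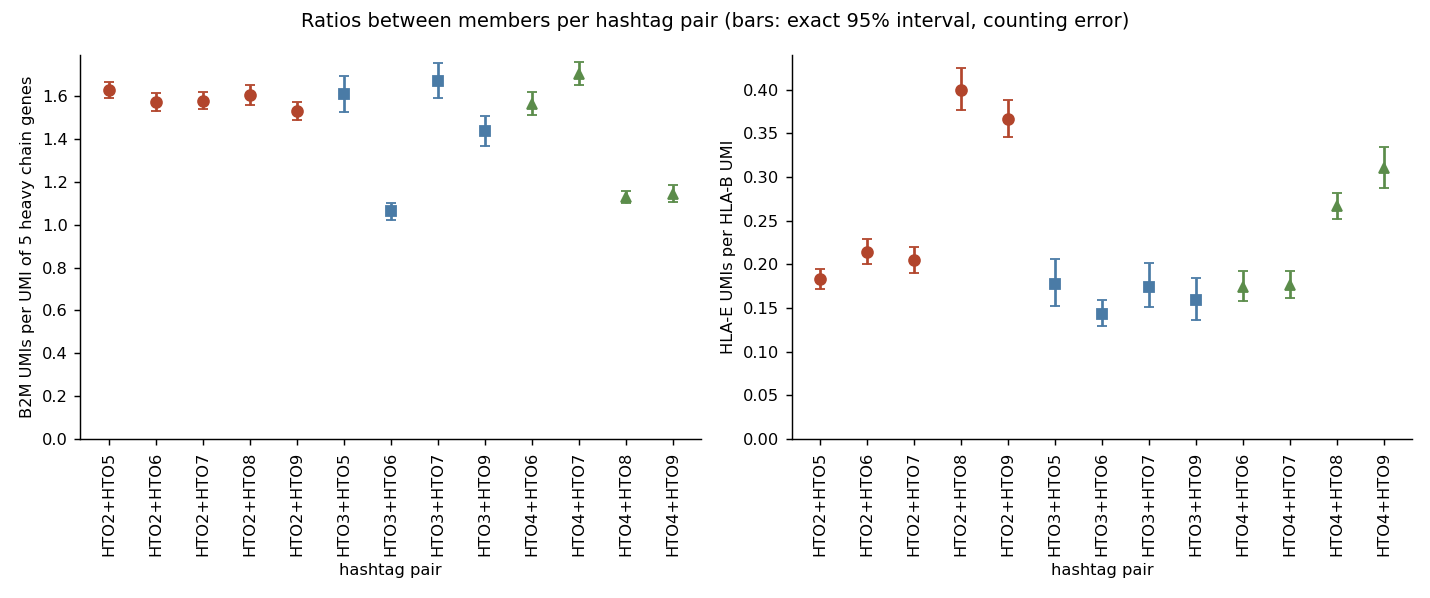
Ratios between members in each of the 13 hashtag pairs, B2M UMIs per UMI of the 5 heavy chain genes (left) and HLA-E UMIs per HLA-B UMI (right), both axes from 0; bars are exact 95% intervals of counting error, colours and shapes as for the levels. On the left HTO3+HTO6, HTO4+HTO8 and HTO4+HTO9 lie between 1.06 and 1.14 and the others at 1.44 or above; on the right HTO2+HTO8 and HTO2+HTO9 are highest and HTO3+HTO6 is lowest.

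Genes that supply peptides to class I varied with the members in part. Of the 14 genes of this list, 11 differed by 2-fold or more and 7 by 4-fold or more between pairs (of all genes with 30 UMIs or more, 61.8% and 21.7%). Genes of the transporter and the immunoproteasome were among those that varied most. TAP1, a chain of the peptide transporter, had 538 CPM in HTO2+HTO8 and 24.3 in HTO3+HTO7, a ratio of 22.2 (15.7 to 32.4). PSMB9, an immunoproteasome subunit, had 1658 in HTO4+HTO9 and 162 in HTO3+HTO5, a ratio of 10.2, PSMB10 a ratio of 6.72 and PSMB8 of 5.23. Tapasin (TAPBP), which bridges TAP and the heavy chain, differed 2.95-fold. The general chaperones of the endoplasmic reticulum differed less, CALR by 1.39-fold, CANX by 1.48-fold and PDIA3 by 1.87-fold. CALR was lowest in the 2 pairs with the highest summed members, with 394 CPM in HTO4+HTO8 and 396 in HTO4+HTO9. Of the next pairs in summed members, HTO3+HTO6 had 545 and HTO2+HTO8 529, above the median pair's 501, and HTO2+HTO9 had 484.

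Among the regulators, IRF1 and NLRC5 had the same 4 highest pairs as HLA-E, and HTO3+HTO6 was not one of them. IRF1, a transcription factor induced by interferon-γ, had 1917 CPM in HTO2+HTO9, 1515 in HTO2+HTO8, 1153 in HTO4+HTO9 and 975 in HTO4+HTO8. HTO3+HTO6 had the lowest IRF1 level of all 13 pairs, 86.6. NLRC5 was counted thinly, with 36.8 in HTO2+HTO8, 6.04 from 6 UMIs in HTO3+HTO6 and 2.95 from 4 UMIs in HTO3+HTO7. Of the peptide supply genes, TAP1 (79.6), PSMB9 (449) and TAPBPL (15.1) in HTO3+HTO6 were the seventh highest of the 13 pairs. TAP2 (31.2), TAPBP (165), PSMB10 (184) and PSME2 (942) were the eighth highest there. PSMB8 (397), PSME1 (562), ERAP1 (34.2) and ERAP2 (14.1) held the fifth place, and CALR, CANX and PDIA3 the second to the fourth. Of the 12 regulator genes, 11 differed by 2-fold or more and 7 by 4-fold or more, against 61.8% and 21.7% of all genes with 30 UMIs or more.

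The class II chains, which present peptides to CD4 T cells and are induced by interferon-γ through CIITA, gave wider ranges than the members. The list also holds CD74 and CIITA. All its 13 genes differed 4-fold or more, against 21.7% of all genes with 30 UMIs or more. HLA-DRB5, HLA-DQA1, HLA-DOA, HLA-DOB and CIITA had 0 UMIs in their lowest pair and were set against a floor of 3 counts. The sum of the list was 5335 CPM in HTO4+HTO9 and 133 in HTO3+HTO7. CD74, the invariant chain, had 2663 in HTO4+HTO9, 2444 in HTO4+HTO8, 1088 in HTO2+HTO8, 816 in HTO2+HTO9 and 593 in HTO3+HTO6. Its 5 highest pairs were thus the 5 with the most HLA-B. The lowest pair, HTO3+HTO5, had 75.0.

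Interferon and NF-κB indicator genes separated pairs that the members did not. The 10 interferon indicator genes summed to 22473 CPM in HTO2+HTO8 and to 1070 in HTO3+HTO9. CXCL10, a chemokine that draws T cells, had 6480 in HTO2+HTO9 and 31.2 in HTO3+HTO6, where it was the eighth highest of 13. ISG15 (1934, where its median pair had 1888) and CXCL9 (11.1, from 11 UMIs) held the fifth place in HTO3+HTO6. The other genes of the list lay there between the sixth place (GBP5, from 3 UMIs) and the tenth (GBP4). NFKBIA, the inhibitor of NF-κB and one of its targets, was highest in HTO2+HTO6 (1272) and HTO2+HTO7 (858) and lowest in HTO3+HTO6 (142). HLA-B in these 2 high pairs was 1276 and 1282 CPM and B2M was 4039 and 4128, at or next to the median of the 13 pairs. Which cytokine, time or tumour these pairs held cannot be told apart here.

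Class I-like molecules, as a sum, had another order than the members. Of 14 genes, 11 had 30 UMIs or more, 8 of them differed by 2-fold or more and 3 by 4-fold or more, near the 61.8% and 21.7% of all such genes. Their sum, most of it FCGRT, was 324 CPM in HTO3+HTO5, the pair with the lowest members, and 221 in HTO2+HTO7. FCGRT, the heavy chain of the neonatal Fc receptor, which also binds β2-microglobulin, differed 1.49-fold. MR1, which presents vitamin B metabolites to MAIT cells, had the same 4 highest pairs as HLA-E, with 33.9 CPM in HTO4+HTO9, 32.4 in HTO2+HTO8, 31.4 in HTO2+HTO9 and 26.9 in HTO4+HTO8, and 13.4 in HTO3+HTO9 as the lowest. MICA, a stress ligand of the NKG2D receptor that needs no β2-microglobulin, was highest in HTO3+HTO5, at 26.8, and lowest in HTO4+HTO8, at 6.74 from 10 UMIs (ratio 3.98, 1.93 to 9.01). HCP5, a non-coding gene between the class I genes, had 36.6 in HTO4+HTO9 and 2.23 from 3 UMIs in HTO3+HTO9.

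**Figure D4:**
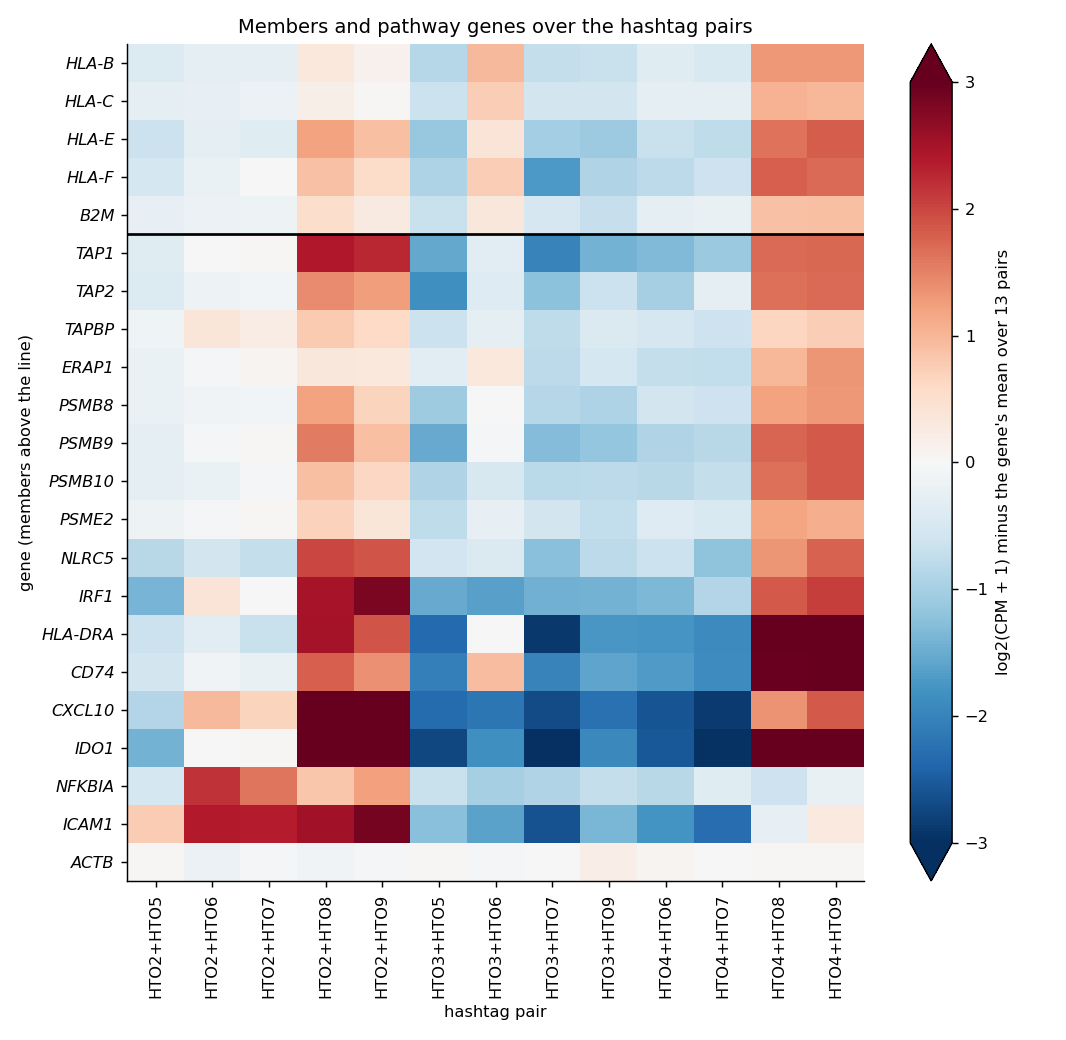
Members (above the line) and genes of their pathway across the 13 hashtag pairs; colour is log2(CPM + 1) minus the gene's mean over the pairs, capped at the ends of the scale. The columns HTO4+HTO8 and HTO4+HTO9 are above the mean for the 5 members drawn (HLA-G is not drawn) and for the peptide supply genes and class II chains drawn; HTO3+HTO6 is above it for the 5 members and CD74 and below it for IRF1, CXCL10 and ICAM1.

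The genes most like each member were ranked by the root-mean-square difference of log2 profiles over the 13 pairs, each centred on its own mean, among 8014 genes with 300 UMIs or more. Small values mean like profiles. For HLA-B they included HLA-C (0.177), IFITM1 (0.257), B2M (0.275) and BTN3A2 (0.290), where the median gene lay at 0.797. For HLA-C they included B2M (0.175), HLA-B (0.177), IFITM3 (0.194) and UBA7 (0.234). For B2M they included BST2 (0.135), HLA-C (0.175), PSME1 (0.175) and IFITM3 (0.182). HLA-E stood in another company, with the immunoproteasome genes PSMB9 (0.271), PSMB8 (0.279) and PSMB10 (0.324), HLA-F (0.301) and the complement gene C1R (0.324). HLA-F was most like HLA-E (0.301), followed by PSMB9 (0.386), PSMB8 (0.402), C1R (0.420) and HLA-B (0.421). Ranked by Pearson correlation in place of the difference, 3 of the 5 genes were shared for HLA-B, 4 for HLA-C, 2 for HLA-E, 0 for HLA-F and 1 for B2M, so the short lists depend on the measure.

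Single cells showed that the levels of the pairs were not set by a few cells. Each cell was thinned to 4000 UMIs, which left out 186 shallower cells and kept 2808. The median cell then had 14 HLA-B UMIs in HTO4+HTO8 (lowest decile 7, highest decile 24), 14 in HTO4+HTO9 and 11 in HTO3+HTO6, and 3 in HTO3+HTO5 (0 to 7.2). For B2M it had 34 in HTO4+HTO8 (21 to 51) and 11 in HTO3+HTO5 (4.8 to 21.2). For HLA-E it had 5 in HTO4+HTO9 (2 to 9) and 0 in HTO3+HTO5 (0 to 2). All members together gave 64.5 UMIs in the median cell of HTO4+HTO9 (41.9 to 96) and 18 in that of HTO3+HTO5 (8 to 34).

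Cells of the 5 upper pairs lay above the lowest pair to different extents. In HTO4+HTO8, 88.0% of cells had more B2M UMIs than the 90th percentile of the lowest pair, in HTO4+HTO9 84.4%, in HTO2+HTO8 71.5%, in HTO3+HTO6 58.1% and in HTO2+HTO9 56.2%. For HLA-B these shares were 92.2% in HTO4+HTO9, 86.8% in HTO4+HTO8, 74.3% in HTO3+HTO6, 48.6% in HTO2+HTO8 and 40.8% in HTO2+HTO9. For HLA-E HTO3+HTO6 had 32.4%, below HTO2+HTO8 at 53.1% and HTO2+HTO9 at 47.6%. In the thinned cells B2M had a UMI in 99.6% of cells or more in every pair. HLA-B had one in 86.0% to 100% of cells, HLA-E in 42.3% (HTO3+HTO9) to 97.8% (HTO4+HTO9), HLA-F in 5.19% to 50%, and HLA-G in 0.775% to 6.59%. Without thinning the shares were 93.3% to 100% for HLA-B, 65.1% to 97.8% for HLA-E, 12.2% to 66.5% for HLA-F and 2.14% to 11.8% for HLA-G. No cell type that lacks class I was at hand to measure free RNA, so the low shares of HLA-F and HLA-G could not be set against a background.

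**Figure D5:**
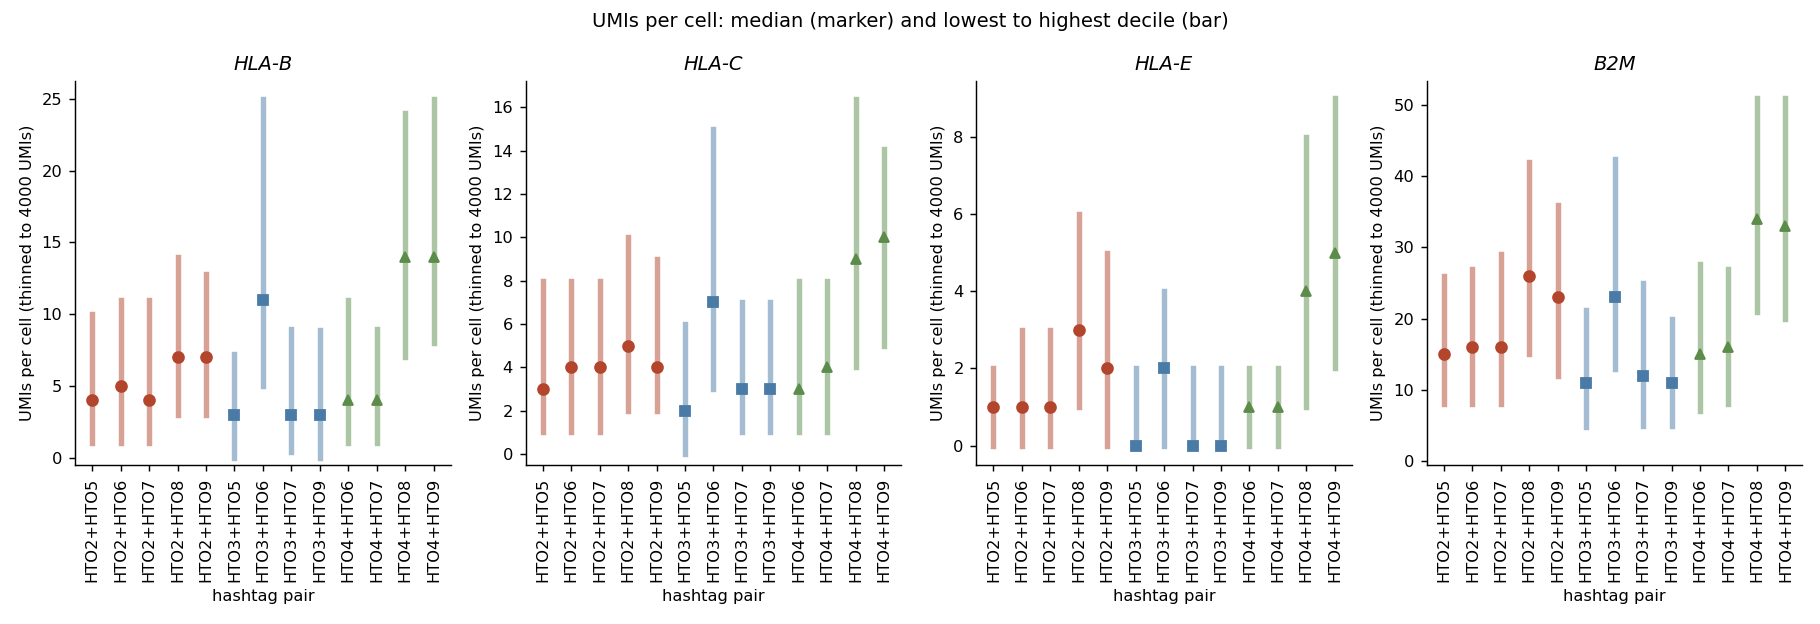
UMIs per cell of HLA-B, HLA-C, HLA-E and B2M in the 13 hashtag pairs after thinning each cell to 4000 UMIs; markers are medians over cells, bars run from the lowest to the highest decile, colours and shapes as for the levels. The B2M bars of HTO4+HTO8 and HTO4+HTO9 start at 20 UMIs or more, near the top of the bars of HTO3+HTO5 and HTO3+HTO9.

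Within a pair, cells with more of one classical chain tended to have more of the other and of B2M. Over the cells of single pairs, between 90 and 482 thinned cells each, Pearson's r of HLA-B with HLA-C was 0.410 to 0.718 (median 0.550), and with B2M 0.472 to 0.687 (median 0.545). HLA-E was tied less closely to HLA-B, with 0.0866 to 0.449 (median 0.247), at lower counts. The 5 heavy chains together went with PSMB9 (median r 0.347) and with CD74 (median 0.345, up to 0.612 in HTO4+HTO8) more than with TAP1 (0.173), IRF1 (0.149) or NFKBIA (0.0422). With ACTB the median r was -0.146. The partner genes were counted at different depths, with a mean per thinned cell of 0.0667 to 2.23 UMIs for TAP1 and 0.574 to 6.74 for PSMB9. The part of these counts in the size of r was not tested. These cells share 1 library and a fixed depth, and the values are descriptions.

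The counts of the hashtags themselves, summed over HTO2 to HTO9, were also set beside the members, a comparison chosen after the levels were known. Human hashtag reagents of the type named in the protocol are antibody mixtures that bind CD298 and β2-microglobulin on the cell surface, and the labels used here do not name the clones. The median cell carried 1837 hashtag counts in HTO3+HTO6, 1570 in HTO4+HTO9 and 1514 in HTO4+HTO8, and 391 in HTO3+HTO7, where it was lowest. Within pairs, where every cell bears the same hashtags, Spearman's rho of hashtag counts with the heavy chain UMIs of the thinned cells was above 0 in 13 of 13 pairs, from 0.573 in HTO3+HTO9 to 0.0511 in HTO3+HTO6, with a median of 0.370. With B2M UMIs it was above 0 in 11 of 13 pairs (median 0.247). With ATP1B3, the gene of CD298, it was above 0 in 8 of 13 (median 0.0402), at a mean of 0.533 UMIs per cell or fewer, and with ACTB in 5 of 13 (median -0.0723). Hashtag counts also went with the cell's UMI total before thinning (median rho 0.267). Cells with few hashtag counts fail the pair rule, and whether this selects cells by class I was not tested. Raising the second hashtag's minimum to 100 counts gave a ratio of 3.32 for the summed members, against 3.44.

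Depth differed between the pairs, without a single direction along the members. The 3 pairs with the highest summed members were also the 3 shallowest, with a median of 6434.5 UMIs per cell in HTO4+HTO9, 7194 in HTO3+HTO6 and 7228 in HTO4+HTO8. The next shallowest was HTO3+HTO9, a pair with low members, at 8018. HTO2+HTO8 and HTO2+HTO9, which came next in summed members, had 9147 and 9431, above the median pair's 8768. Within pairs, the members took a larger share of UMIs in the cells below the median depth than in those above it, by 1.01-fold to 1.58-fold (median 1.30). In the cells above the median depth of their pair the members had 16004 CPM in HTO4+HTO9 and 4090 in HTO3+HTO5. The share of barcodes passing the cell filter differed between pairs, from 58.2% in HTO4+HTO7 to 24.3% in HTO3+HTO6. Barcodes with 20% to 50% mitochondrial UMIs held 17606 member UMIs per 1000000 non-mitochondrial UMIs in HTO4+HTO8, 15946 in HTO4+HTO9 and, as the lowest, 5851 in HTO3+HTO5. In them B2M per heavy chain UMI was again lowest in HTO3+HTO6, at 0.890, and the highest was 1.498 in HTO3+HTO7. In barcodes above 50% it was 0.915 in HTO3+HTO6, 0.963 in HTO4+HTO8 and 1.07 in HTO2+HTO9, below the 1.13 of HTO4+HTO9, which rested on 18 barcodes. In the cells below and above the median depth HTO3+HTO6 had 1.04 and 1.08. The part of depth and of cell loss in the levels of single pairs was not tested.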

How the data were processed

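Gene and hashtag counts of 1 pooled library were used. The deposited values are whole-number UMI counts per barcode, not normalised; Cell Ranger is given as version 5.0.1 per the file headers but as 2.1.1, with GRCh38, per the submitters' processing notes. The counting annotation was one not given in the sources used here. Cells needed 500 genes and no more than 20% mitochondrial UMIs; no doublet caller was run, since cells with 3 or more strong hashtags fail the pair rule, and doublets within a pair remain. UMIs were summed per pair and divided by the pair's total. Exact Poisson and conditional 95% intervals (SciPy 1.17.1, Python 3.11.15) cover counting error only. A gene at 0 in its lowest pair was set against a floor of 3 counts. Named genes were the members, the genes of the lists and, per member with 300 UMIs or more, the 5 genes with the smallest root-mean-square difference of log2(CPM + 1), pseudocount 1. The scripts were tested on simulated data. TMM factors came from edgeR 4.0.16 in R 4.3.3. The members and lists were chosen with earlier results of these data known. Alternatives were other cell filters, hashtag rules, thinning, weighting and scaling. A result that the rule for named genes gives is not reported here.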

Additional observations from a re-analysis of the deposited data

How the results depend on the processing

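No paired analysis was possible because the hashtag pairs carry no replicate numbers and come from 1 library, and for the same reason no replicate could be left out. The ratio of the highest to the lowest pair for the summed members, 3.44, came to 4.34 with the stricter filter (1000 genes, mitochondrial share up to 10%, 400 cells), 3.24 with no cell filter, 3.21 with up to 50% mitochondrial UMIs, 3.32 with a second hashtag of 100 counts or more, 3.32 as a mean over cells, 3.67 with median-of-ratios size factors and 3.57 with TMM factors. B2M per heavy chain UMI came to 1.90, 1.62 and 1.63 in its highest pair and to 1.01, 0.960 and 0.963 in its lowest pair under the stricter filter, no filter and the 50% limit. The causes were not tested. Over 11 alternatives single ratios ran from 4.26 to 6.54 for HLA-B, 3.02 to 4.35 for HLA-C, 6.52 to 11.2 for HLA-E, 9.16 to 28.5 for HLA-F and 2.75 to 4.01 for B2M; HLA-G had no ratio under the stricter filter, where its lowest pair had 0 UMIs. HTO4+HTO8 and HTO4+HTO9 stayed the highest pairs of HLA-E, HLA-F and B2M in 11 of 11 alternatives, of HLA-B and HLA-C in 10 (not under the stricter filter) and of HLA-G in 9 (not under the stricter filter or thinning). HTO3+HTO6, HTO4+HTO8 and HTO4+HTO9 kept the lowest B2M per heavy chain UMI in the 8 alternatives that can change a ratio within a pair, as did HTO2+HTO9 and HTO2+HTO8 the highest HLA-E per HLA-B UMI. Depth limits the thinly counted genes, such as HLA-G and NLRC5.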
